A study of Mus musculus with 6 samples.

Results

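The mitochondrial ribosomal protein genes are the nuclear genes for the proteins of the ribosome inside mitochondria. They were taken from the array's annotation as every probe set with a single gene symbol that starts with Mrpl (large subunit) or Mrps (small subunit) followed by a digit. This gave 76 of 18193 singly named genes, 47 of the large and 29 of the small subunit, measured by 156 of 45101 probe sets. Of these, 123 probe sets were bright enough to be tested (80 of the large and 43 of the small subunit), and each of the 76 genes had at least 1 tested probe set. 4 probe sets that name such a gene beside another gene were left out, so Mrpl30 and Mrpl53 are not members.

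The study measured RNA of pancreatic islets from OF1 male mice, an outbred stock, aged 10 weeks, in 3 control samples and 3 samples after bisphenol A (BPA), a plastics chemical with oestrogenic activity. The design text gives BPA at 100 µg/kg/day, as 2 injections of 50 µg/kg under the skin, for 4 days, with 100 µL of tocopherol-stripped corn oil as vehicle in both groups; islets were taken 16 hours after dosing ended. The samples' treatment protocol has 2 days instead, and the BPA samples carry 1 nM and 48 hours in their source names, so the labels do not settle the treatment. The samples are called biological replicates, with 3 experiments per replicate, without a number of animals for each, so p-values measure the spread between these samples.

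Mitochondria keep their own ribosomes, which translate a small set of membrane proteins encoded by mitochondrial DNA, all of them subunits of the respiratory chain and ATP synthase. The ribosomal RNAs come from mitochondrial DNA, while every protein is encoded in the nucleus, made in the cytosol and imported. In beta cells, oxidative phosphorylation couples glucose metabolism to insulin release, so the machinery that builds the respiratory chain is part of what a glucose response rests on.

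The endocrine markers of the islet were bright in every sample. Ins2 lay at 15.24 to 15.32 on the log2 signal scale, and Gcg at 14.98 to 15.14. The highest signal of each array lay in the same range as Ins2, so these markers sit near the top of the scale. Whether that limits their spread was not tested. RNA of exocrine, stromal and immune cells was present too and varied between samples, as given below beside the members. The 6 arrays correlated with each other at 0.976 to 0.993 over all probe sets, and control 3 with BPA 3 at 0.993, while control 3 with BPA 1 stood at 0.976.

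No member passed the test for a difference between BPA and control. With limma and Benjamini-Hochberg adjustment over all 22518 tested probe sets, 0 of 123 member probe sets and 0 of 76 member genes had an adjusted p under 0.05, and the smallest was 0.655; over all features the percentage called was also 0. Most members had a higher mean after BPA, by small amounts. With each gene represented by its brightest tested probe set, 61 of 76 genes (80.3%) had a higher mean after BPA, against 57.7% of all 11787 tested genes. The median difference of the members was 0.14 on the log2 scale (middle 50% of genes 0.037 to 0.27, range -0.16 to 0.50), a 1.10-fold ratio, against 0.028 over all tested genes.

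In 21 of the 76 genes (27.6%) every BPA sample lay above every control sample, against 8.48% of all tested genes. In 1 gene, Mrpl44, every BPA sample lay below every control sample, against 3.53% of all tested genes. At an unadjusted p under 0.05, limma gave 13 members higher and 0 lower after BPA, where the shares over all tested genes were 3.98% and 1.36%. Those 13 genes are among the 21 without overlap.

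Counting probe sets in place of genes, with the brightest set of each gene counted again, gave smaller shares higher after BPA. Of 123 tested member probe sets, 91 (74.0%) had a higher mean after BPA, against 52.6% of all tested probe sets, with a median of 0.099 against 0.011. Without overlap, 29 were higher and 2 lower, where 7.83% and 4.35% of all tested probe sets were. At an unadjusted p under 0.05, 18 were higher and 1 lower, against 3.84% and 2.64% of all. The 47 tested member probe sets other than the brightest of each gene gave a smaller shift. Among them 30 (63.8%) had a higher mean after BPA, with a median of 0.061. Without overlap, 8 of the 47 were higher and 1 lower, and at an unadjusted p under 0.05 by limma 5 were higher and 1 lower.

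**Figure D1:**
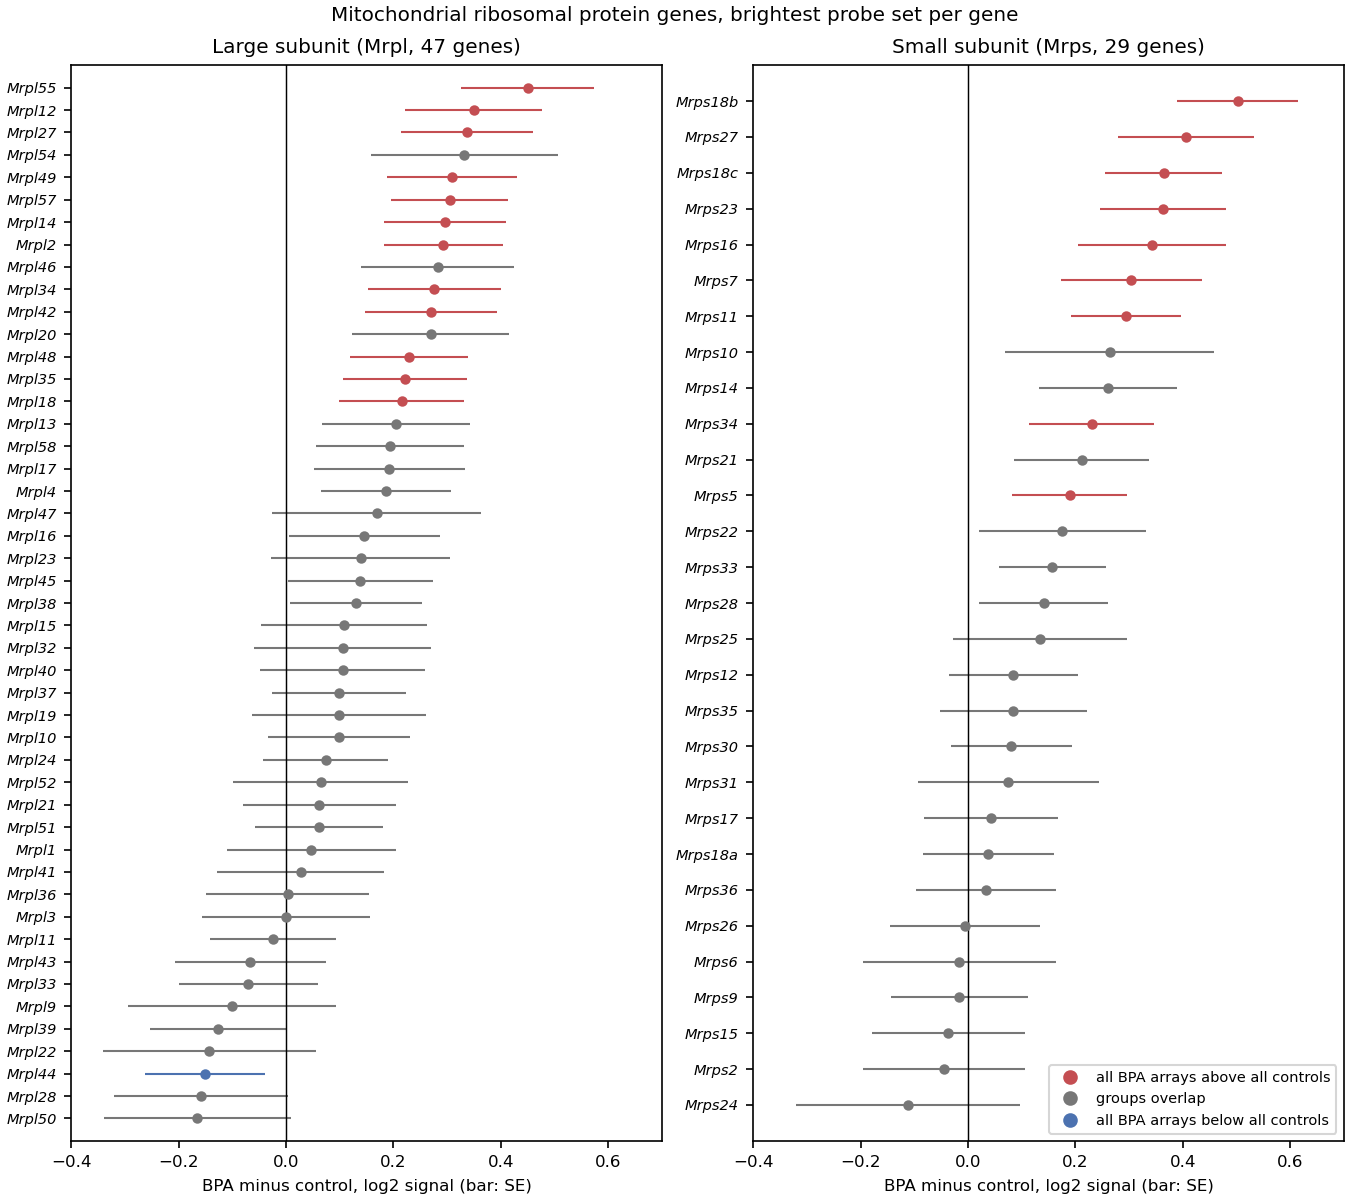
BPA minus control in log2 signal for each of the 76 genes by its brightest tested probe set, large subunit on the left and small subunit on the right, with bars of 1 SE from the limma fit (3 samples per group). Points in red mark the 21 genes in which every BPA sample lay above every control sample, the point in blue marks Mrpl44, and 61 of 76 points lie to the right of 0.

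Most genes of either subunit had a higher mean after BPA. Of 47 large subunit genes, 38 had a higher mean after BPA, 12 lay above control without overlap and 1 below, with a median of 0.13. Of 29 small subunit genes, 23 had a higher mean, 9 lay above without overlap and 0 below, with a median of 0.14. The shares higher without overlap were 25.5% and 31.0%, against 8.48% of all tested genes, of which 3.53% were lower and 57.7% had a higher mean. At an unadjusted p under 0.05, limma gave 7 large and 6 small subunit genes (14.9% and 20.7%), all higher, against 3.98% of all tested genes. By probe set, the medians were 0.098 over 80 sets of the large subunit and 0.10 over 43 of the small.

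The mean of all members relative to their own level over the 6 arrays was -0.0091, -0.077 and -0.12 in the control samples and 0.16, -0.015 and 0.065 in the BPA samples. BPA 1 stood highest and control 3 lowest, and the groups overlapped, since control 1 lay above BPA 2. The large subunit mean was 0.0071, -0.071 and -0.12 in the control samples and 0.15, -0.021 and 0.058 in the BPA samples, again with control 1 above BPA 2. The small subunit mean was -0.035, -0.088 and -0.11 in the control samples and 0.17, -0.0056 and 0.075 in the BPA samples, with no overlap between groups but a gap between control 1 and BPA 2 that is small beside the distance from BPA 2 to BPA 1. BPA 1 had 65 of 76 members above their own mean over the 6 arrays, BPA 3 had 48 and BPA 2 had 34, against 38, 21 and 15 in control 1, 2 and 3.

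Without BPA 1, 49 of the 76 genes had a higher mean in BPA, where 54.7% of all tested genes did. The median was 0.064, with 0.018 over all tested genes. The median of the small subunit was then 0.049 and that of the large 0.069. At an unadjusted p under 0.05, 9 members were then higher (11.8%, against 2.32% of all tested genes), in place of 13. That count was 5 without control 1 (6.58% against 2.20%), 6 without control 2 (7.89% against 3.14%) and 8 without BPA 3 (10.5% against 5.90%). Without any single sample other than BPA 1 the count of higher genes lay between 56 and 68, where 52.3% to 63.0% of all tested genes were higher. Without control 3 it was 56 with a median of 0.11, and without BPA 2 it was 68 with a median of 0.17.

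The large minus small subunit mean, a measure in which any shift common to all members cancels, was 0.043, 0.017 and -0.012 in the control samples and -0.015, -0.016 and -0.017 in the BPA samples. The groups did not overlap: the BPA samples were nearly equal and lay below every control, with control 3 just above them. The difference between groups was -0.032, smaller than the range over the control samples. Mrps30 and Mrps18a carry small subunit names but sit in the large subunit of the mammalian mitochondrial ribosome, and Mrps36 is now known as a subunit of the 2-oxoglutarate dehydrogenase complex. With genes assigned by structure the values were 0.043, 0.035 and -0.0083 in the control samples and -0.017, -0.023 and -0.030 in the BPA samples, again without overlap, the difference between groups was -0.047, and the medians were 0.11 over 49 large and 0.17 over 26 small subunit genes.

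**Figure D2:**
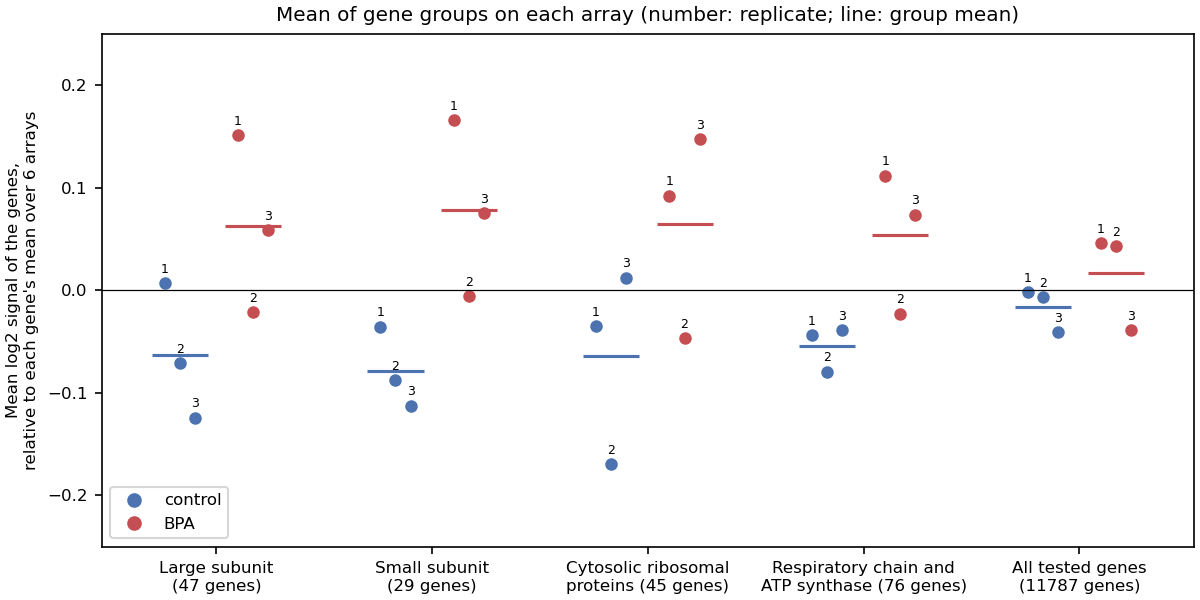
Mean log2 signal of gene groups on each array, each gene relative to its own mean over the 6 arrays, with control in blue, BPA in red, replicate numbers above the points and lines at the group means. Both subunits are highest on BPA 1 and lowest on control 3, and BPA 2 lies at or just below 0 for both.

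A technical measure separated the groups as well. The 3′ minus 5′ balance of the array's own Gapdh and Actb control probe sets, which is larger where the 5′ ends of transcripts are less represented, was 3.42, 3.79 and 3.54 in the control samples and 2.60, 2.87 and 2.99 in the BPA samples in log2 units, with no overlap. Fitted by limma with the balance as a covariate, 31 of 76 members were higher after BPA, where 47.7% of all tested genes were. The median was -0.065, with -0.018 over all tested genes. At an unadjusted p under 0.05 in that fit, 0 members were higher, against 0.42% of all tested genes. Since the balance and the treatment divide the samples the same way, they cannot be told apart with these 6 arrays.

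Markers of other cells of the pancreas moved between samples too. Of 28 acinar (enzyme-secreting) genes 21 were tested and 19 had a higher mean after BPA, and their mean level relative to each gene's own mean over the arrays was 0.32, 0.69 and -1.43 in the control samples and 1.02, -0.049 and -0.55 in the BPA samples. Control 3 was lowest, BPA 1 highest, and the groups overlapped. The 18 stellate cell and fibroblast genes (16 higher) gave -0.017, -0.0090 and -0.47 in the control samples and 0.52, -0.049 and 0.022 in the BPA samples, and 14 macrophage and lymphocyte genes of 17 (11 higher) gave 0.040, -0.18 and -0.33 in the control samples and 0.59, -0.12 and -0.0060 in the BPA samples. BPA 1 was the highest sample in the acinar, stellate and macrophage lists, as in the members. The 18 tested endocrine genes of 22 (7 higher) stayed between -0.051 and 0.053 in every sample. Among 8 duct genes 6 had a higher mean, and among 11 endothelial genes 7, where 57.7% of all tested genes did. BPA 1 was also the highest sample in the duct list, at 0.16. In the endothelial list BPA 1 lay at -0.097, and BPA 3 was highest at 0.22. The part of these cells in the members' values was not tested, and in whole islets fewer cells of a type and less RNA per cell cannot be told apart.

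Among the small subunit proteins, Mrps18b had the largest difference of all 76 genes. It is one of the paralogues Mrps18a, Mrps18b and Mrps18c, which descend from a single bacterial protein. Its log2 signal was 9.44, 9.58 and 9.56 in the control samples and 9.98, 10.16 and 9.95 in the BPA samples. Every BPA sample lay above every control sample. The means were 9.53 ± 0.076 in control and 10.03 ± 0.12 after BPA (SD, n = 3), and the difference was 0.50 ± 0.11 (SE; 95% interval 0.23 to 0.77), a 1.42-fold ratio with adjusted p = 0.655 by limma.

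The sister gene Mrps18c gave 9.77, 9.80 and 10.00 in the control samples and 10.23, 10.19 and 10.23 in the BPA samples. Its BPA samples lay close together and above all controls, with a difference of 0.36 ± 0.11 (adjusted p = 0.674, limma). Mrps18a, the paralogue built into the large subunit, read 9.05, 9.06 and 9.06 in the control samples and 9.29, 8.98 and 9.02 in the BPA samples. Here BPA 2 and BPA 3 lay below all controls and BPA 1 above them, and the difference was 0.038 ± 0.12 (adjusted p = 0.968, limma). The differences between the paralogues' values were not tested.

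Mrps27, a pentatricopeptide repeat protein found only in mitochondrial ribosomes, gave 7.21, 7.33 and 7.06 in the control samples and 7.58, 7.74 and 7.49 in the BPA samples, with no overlap. The difference was 0.41 ± 0.13 (adjusted p = 0.674, limma). Mrps11, the counterpart of a bacterial protein of the platform of the small subunit, gave 7.30, 7.23 and 7.30 in the control samples and 7.59, 7.51 and 7.63 in the BPA samples, a narrow spread in both groups and a difference of 0.30 ± 0.10 (adjusted p = 0.714, limma).

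Mrps23, a mitochondria-specific protein, gave 9.15, 9.22 and 9.14 in the control samples and 9.70, 9.49 and 9.42 in the BPA samples. The controls lay close together and all BPA samples above them, with a difference of 0.36 ± 0.12 (adjusted p = 0.691, limma). A dimmer probe set of the same gene had the largest difference of all 123, 0.75 ± 0.14, from 6.32, 6.19 and 6.39 in the control samples and 7.30, 6.99 and 6.87 in the BPA samples (adjusted p = 0.655, limma). The remaining tested probe set of the gene, which may cross-hybridise, overlapped between groups with a difference of 0.061 ± 0.11. Mrps12, which lies at the decoding site where codon and tRNA are matched, gave 10.91, 11.05 and 10.98 in the control samples and 11.18, 11.15 and 10.86 in the BPA samples. Its groups overlapped, with BPA 3 the lowest of all samples and a difference of 0.085 ± 0.12. Mrps30 differed by 0.081 ± 0.11 and Mrps36 by 0.034 ± 0.13, both with overlap.

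The other small subunit genes without overlap, all higher after BPA, were Mrps16, Mrps7, Mrps34 and Mrps5, with differences of 0.34, 0.30, 0.23 and 0.19. They are counterparts of bacterial proteins, apart from the mitochondria-specific Mrps34. The lowest difference in this subunit was that of Mrps24, -0.11, with overlap.

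In the large subunit, Mrpl55 had the largest difference. Its log2 signal was 7.82, 8.06 and 7.90 in the control samples and 8.48, 8.39 and 8.26 in the BPA samples, with no overlap. The means were 7.93 ± 0.12 in control and 8.38 ± 0.11 after BPA (SD, n = 3), and the difference was 0.45 ± 0.12 (95% interval 0.16 to 0.74), a 1.37-fold ratio with adjusted p = 0.658 by limma.

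Mrpl12 forms the flexible stalk that recruits translation factors, and has been reported to bind the mitochondrial RNA polymerase. It gave 8.50, 8.34 and 8.34 in the control samples and 8.84, 8.56 and 8.82 in the BPA samples. BPA 2 lay only just above control 1, and the difference was 0.35 ± 0.13 (adjusted p = 0.736, limma). The stalk's base proteins Mrpl10 and Mrpl11, chosen here after their values were seen, gave differences of 0.098 and -0.024 on their brightest probe sets, both with overlap. That of Mrpl11 is of a class that may bind unrelated transcripts. Another tested probe set of Mrpl11, not of that class, was higher without overlap (0.20 ± 0.10). A further one differed by 0.054 with overlap.

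Mrpl27 and Mrpl2, counterparts of bacterial proteins that lie by the peptidyl transferase centre, were also higher without overlap. Mrpl27 gave 10.03, 10.04 and 9.97 in the control samples and 10.55, 10.21 and 10.27 in the BPA samples, and a difference of 0.34 ± 0.12 (adjusted p = 0.736, limma). BPA 1 was the farthest from the controls, which were nearly equal. Mrpl2 gave 10.25, 10.19 and 10.42 in the control samples and 10.50, 10.57 and 10.67 in the BPA samples, and a difference of 0.29 ± 0.11 (adjusted p = 0.746, limma). Control 3 was the highest control, close below BPA 1.

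Mrpl57, a small mitochondria-specific protein, gave 10.27, 10.49 and 10.52 in the control samples and 10.69, 10.74 and 10.77 in the BPA samples. The BPA samples were close together above all controls, with a difference of 0.30 ± 0.11 (adjusted p = 0.734, limma). Mrpl45, which lies at the exit of the peptide tunnel and faces the inner membrane, differed by 0.14 ± 0.13 with overlap. Mrpl58, a peptidyl-tRNA hydrolase built into the ribosome that frees stalled chains, gave 10.33, 10.52 and 10.31 in the control samples and 10.82, 10.44 and 10.49 in the BPA samples, with BPA 2 and BPA 3 below control 2 and a difference of 0.19 ± 0.14.

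Mrpl44, a protein with a ribonuclease III fold, was the 1 gene lower without overlap on its brightest probe set. It gave 10.97, 10.70 and 10.72 in the control samples and 10.67, 10.59 and 10.68 in the BPA samples. The nearest values of the groups, control 2 and BPA 3, were almost equal, and the difference was -0.15 ± 0.11 (adjusted p = 0.857, limma). A second tested probe set of Mrpl44 also had a lower mean after BPA (-0.13), but its groups overlapped, and a further one had a higher mean (0.085). A dimmer probe set of the gene, not tested, was higher without overlap, at 6.11, 6.29 and 6.17 in the control samples and 6.66, 6.82 and 6.47 in the BPA samples, a difference of 0.46, so the gene has no single direction on the array.

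**Figure D3:**
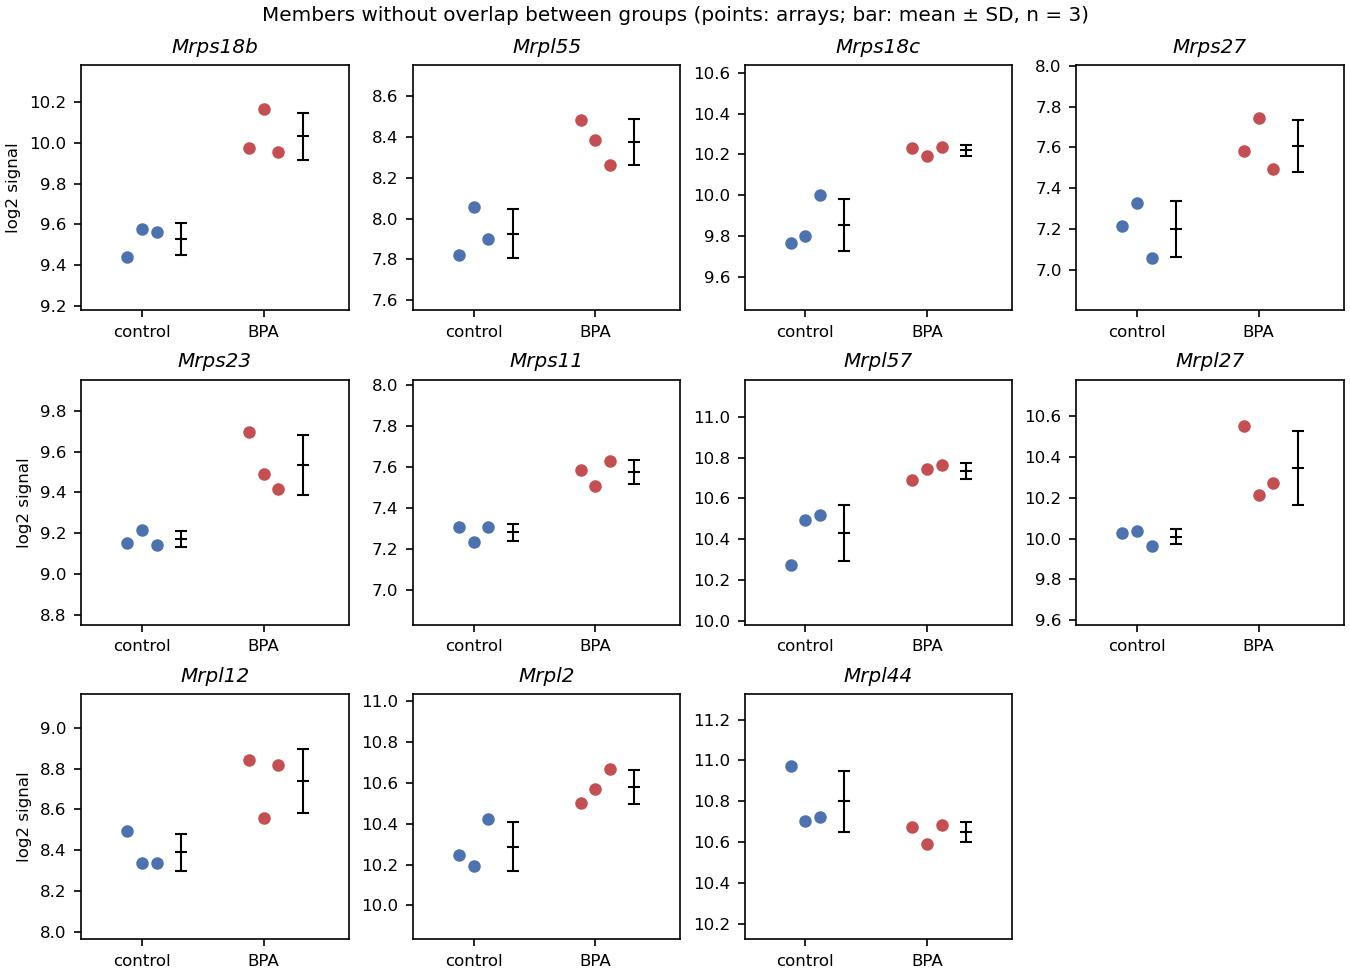
Log2 signal in each sample of the 10 members with the smallest p among those higher without overlap, and of Mrpl44, with control in blue, BPA in red and black bars at the mean ± SD (n = 3 per group); the panels span equal ranges. In each panel the groups do not overlap, and BPA 1 is the highest sample in Mrpl55, Mrps23, Mrpl27 and Mrpl12 but not in Mrps18b, Mrps27 or Mrpl57.

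The remaining large subunit genes without overlap, all higher after BPA, were Mrpl49, Mrpl14, Mrpl34, Mrpl42, Mrpl48, Mrpl35 and Mrpl18, with differences from 0.31 for Mrpl49 down to 0.22 for Mrpl18. The lowest differences were those of Mrpl50, Mrpl28 and Mrpl44. Members with bacterial counterparts and those classed as mitochondria-specific gave like counts. Of 47 genes with a bacterial counterpart 37 had a higher mean, 14 without overlap, with a median of 0.14. Of 29 mitochondria-specific genes, with Mrps36 counted among them, these were 24 and 7, with a median of 0.13. The shares without overlap were 29.8% and 24.1%, against 8.48% of all tested genes, of which 57.7% had a higher mean.

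Genes with several probe sets show how far a gene's value depends on the probes. 46 genes had 1 tested probe set and 30 had 2 to 7. Of the 30, all tested probe sets pointed up in 13, all pointed down in 3, and both signs occurred in 14, with a median range within a gene of 0.21 and a largest of 1.00. In Mrpl27, Mrpl48 and Mrpl49, chosen after their values were seen, every one of several tested probe sets was higher without overlap. Mrpl48 gave 0.23 and 0.57, the latter from 9.44, 9.60 and 9.21 in the control samples and 10.18, 10.00 and 9.77 in the BPA samples.

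In 5 genes the tested probe sets differed in sign with at least 1 difference beyond 0.3. Mrpl35 was higher without overlap on its brightest probe set (0.22 ± 0.12) and lower without overlap on another, at 7.64, 7.43 and 7.01 in the control samples and 7.01, 6.73 and 6.84 in the BPA samples, a difference of -0.50 ± 0.18 in which control 3 and BPA 1 were almost equal. Mrpl50 was -0.16 ± 0.17 on its brightest probe set, with overlap, and 0.63 ± 0.13 on a dimmer one, at 7.44, 7.18 and 7.50 in the control samples and 8.13, 7.97 and 7.90 in the BPA samples, without overlap (adjusted p = 0.655, limma). These genes have no single direction on the array.

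Mrpl15 had 7 tested probe sets, with differences from -0.47 to 0.53, the latter without overlap. Mrps9 had 4, from -0.50 to 0.099, all with overlap. Both tested probe sets of Mrps24 are of the class that can bind several related transcripts, and gave -0.11 and 0.33, so its value is uncertain.

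**Figure D4:**
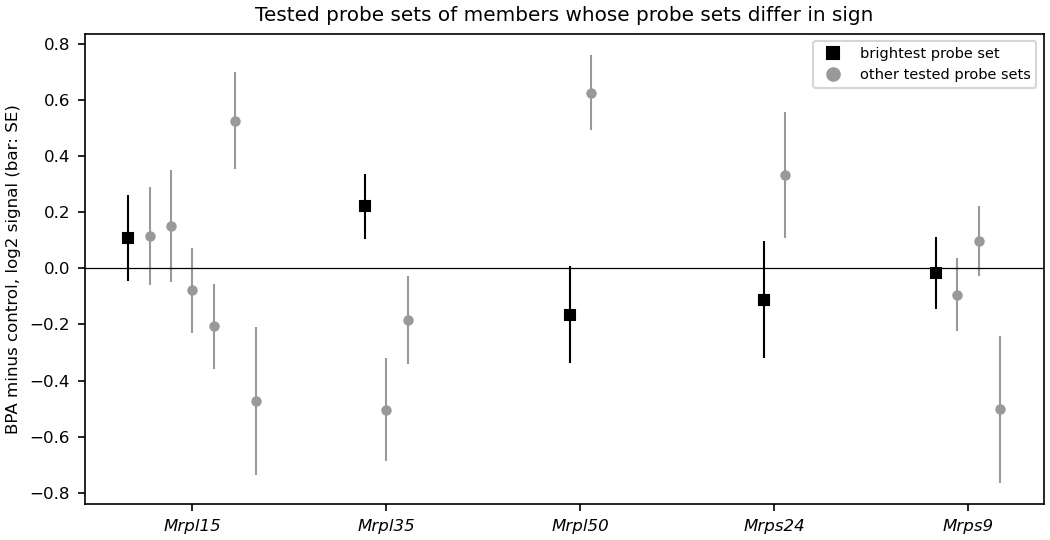
BPA minus control in log2 signal (bars 1 SE) for every tested probe set of the 5 members whose probe sets differ in sign with a difference beyond 0.3, black squares for the brightest probe set and grey circles for the others. The brightest probe set lies on the other side of 0 from at least 1 other probe set of the gene in all 5.

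The class of probe set moved with the result. The 29 member probe sets that target transcripts of 1 gene only (names ending in _a_at) had a median of 0.16, with 24 higher and 11 higher without overlap (37.9%), where 59.9% of all tested _a_at sets had a higher mean and 11.7% were higher without overlap. The 72 plain _at sets had a median of 0.11 with 55 higher, the 8 _s_at sets had 5 higher, and the 14 _x_at sets, which may bind unrelated transcripts, had a median of 0.015 with 7 higher. Without overlap, 17 _at sets (23.6%), 0 _s_at sets and 1 _x_at set (7.14%) were higher. The shares over all tested sets of these classes were 7.37%, 8.21% and 5.13%. Over all tested probe sets the medians were 0.041 for _a_at and -0.0079 for _x_at. The shares of all tested sets with a higher mean were 51.6% for _at, 53.4% for _s_at and 48.2% for _x_at. The 33 member probe sets too dim to be tested, in 28 genes, had 18 higher means, with 5 higher and 2 lower without overlap. Of all 22519 probe sets too dim to be tested, 57.2% had a higher mean, and 7.29% were higher and 3.57% lower without overlap. Among the 15559 of them with a single gene, like the members, these shares were 60.9%, 8.16% and 3.00%.

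Members varied together among samples beyond the group means, with no test attached. With each group's mean removed, the median correlation over the 6 arrays was 0.26 between genes of the large subunit, 0.25 within the small subunit and 0.27 between large and small subunit genes, against 0.037 over all pairs of tested genes. Among cytosolic ribosomal proteins it was 0.34 and among respiratory chain genes 0.21. The points share arrays, so a level that differs between arrays enters all of them.

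Promoter sequence was available from RefSeq (GRCm38.p6) for 67 of the 76 genes, in 73 windows of 250 bases before to 50 after an annotated start. Nuclear genes for mitochondrial proteins are known for sites of ETS factors (GABP, also called NRF2), NRF1 and YY1, so these were searched as CCGGAAG, GCATGCGC and AGATGGCG on both strands; the first and the last can share letters where they adjoin. The ETS letters were in 25 of the 73 member windows (34.2%), against 16.6% of windows of all tested genes and 8.86% of all promoters. The NRF1 letters were in 8 (10.96%), against 5.01% and 2.71%, and the YY1 letters in 8 (10.96%), against 3.56% and 1.95%. At least 1 of them was in 35 member windows (47.9%), against 23.1% of those of tested genes and 12.6% of all. The members' windows had a median GC of 58.7%, and those of tested genes 60.7%.

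Windows are not 1 per gene, since Mrpl48 has 4, Mrpl2 has 3 and Mrps16 has 2. Of the 26 windows of 20 genes higher without overlap, 38.5% held the ETS letters, 3.85% those of NRF1 and 15.4% those of YY1, and of the 47 windows of the other members 31.9%, 14.9% and 8.51%. No test was made of these shares, and all 3 genes with extra windows are in the first set. The stretches below, the 150 bases before the annotated start, show the motifs in 3 genes higher without overlap (Mrps27, Mrpl27 and Mrps11) and in 2 whose groups overlapped (Mrpl22 and Mrpl32), with the motif letters in capitals. Mrps27 (chr13:99344636-99344785, plus strand) and Mrpl27 (chr11:94653641-94653790, plus strand) carry the ETS letters, and Mrps11 (chr7:78782981-78783130, plus strand) those of YY1. Mrpl22 (chr11:58171514-58171663, plus strand) carries ETS and NRF1 letters, and Mrpl32 (chr13:14613038-14613187, minus strand) 4 matches to NRF1, of which the first pair overlap because the letters are nearly their own complement. All are GRCm38.p6, printed 5′ to 3′ on the gene's strand.
Mrps27: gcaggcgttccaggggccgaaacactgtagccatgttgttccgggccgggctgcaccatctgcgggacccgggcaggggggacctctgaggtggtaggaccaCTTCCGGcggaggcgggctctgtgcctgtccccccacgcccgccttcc
Mrpl27: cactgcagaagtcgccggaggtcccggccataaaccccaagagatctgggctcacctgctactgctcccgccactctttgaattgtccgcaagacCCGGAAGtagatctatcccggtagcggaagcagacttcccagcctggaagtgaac
Mrps11: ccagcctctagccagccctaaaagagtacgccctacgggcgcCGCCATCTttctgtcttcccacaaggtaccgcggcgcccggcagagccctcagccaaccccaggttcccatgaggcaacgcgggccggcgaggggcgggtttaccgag
Mrpl22: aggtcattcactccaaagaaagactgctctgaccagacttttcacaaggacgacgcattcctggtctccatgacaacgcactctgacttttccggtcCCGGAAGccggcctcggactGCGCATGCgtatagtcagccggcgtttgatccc
Mrpl32: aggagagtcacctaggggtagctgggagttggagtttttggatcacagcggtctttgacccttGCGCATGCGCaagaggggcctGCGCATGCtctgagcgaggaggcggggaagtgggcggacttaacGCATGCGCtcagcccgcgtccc
Mrpl22, with both motifs, read 10.66, 10.41 and 10.00 in the control samples and 10.45, 10.03 and 10.17 in the BPA samples, a difference of -0.14 with overlap, and Mrpl32 differed by 0.11 with overlap. A match is a description of letters and not a site of binding.

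The mitochondrial ribosome also holds proteins with other names. Gadd45gip1, a large subunit protein, gave 7.73, 7.78 and 7.63 in the control samples and 8.27, 8.09 and 8.16 in the BPA samples, with no overlap and a difference of 0.47 ± 0.11 (adjusted p = 0.655, limma). Ptcd3, a pentatricopeptide repeat protein of the small subunit, went the other way, at 9.78, 9.71 and 9.72 in the control samples and 9.63, 9.53 and 9.44 in the BPA samples, with a difference of -0.20 ± 0.11 (adjusted p = 0.801, limma). Dap3 and Chchd1 of the small subunit differed by 0.039 and 0.19, both with overlap. Of these 4, 3 had a higher mean and 0 passed.

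Lists of genes that work with the ribosome had medians below that of the members, a difference that was not tested. For comparison, 57.7% of all tested genes had a higher mean, with a median of 0.028. Without overlap, 8.48% of them were higher and 3.53% lower. Of 11 tested translation factors of 13, 8 had a higher mean and 2 lay above control without overlap, with a median of 0.074. These were the initiation factor Mtif3 (0.32 ± 0.13, adjusted p = 0.771, limma), from 8.48, 8.51 and 8.75 in the control samples and 8.77, 8.88 and 9.04 in the BPA samples, and the elongation factor Tsfm (0.15 ± 0.099). Of 20 tested genes of 22 for mitochondrial aminoacyl-tRNA synthetases and the glutamine pathway, which charge tRNAs, 11 had a higher mean, 0 were higher and 1 lower without overlap, and the median was 0.015. The lower gene was Ears2 (-0.30 ± 0.13), while Wars2 was 0.29 ± 0.14 with overlap.

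Of 24 tested assembly factors of 30, 16 had a higher mean, 4 without overlap, and 1 was lower without overlap, with a median of 0.063. Those with the smallest p were the ribosomal RNA methyltransferases Mrm1 (0.38 ± 0.17, with overlap) and Mrm3 (0.22 ± 0.10, without). Of 23 tested genes of 25 for transcription of mitochondrial DNA and RNA processing, 12 (52.2%) had a higher mean, with a median of 0.0088. Without overlap, 5 were higher and 1 lower. The shares over all tested genes were 57.7% with a higher mean, and 8.48% higher and 3.53% lower without overlap, with a median of 0.028. Hsd17b10, a subunit of the mitochondrial RNase P, had a larger difference than any member by its brightest probe set, 0.64 ± 0.13 (adjusted p = 0.655, limma), from 8.97, 9.19 and 9.20 in the control samples and 9.86, 9.62 and 9.81 in the BPA samples, and Fastk, an RNA-binding protein, gave 0.30 ± 0.12. In none of these lists did a gene pass the limma test.

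The cytosolic ribosomal proteins and the respiratory chain are the sets closest in kind. Of 45 tested cytosolic ribosomal protein genes of 49, 37 had a higher mean after BPA, 10 without overlap, with a median of 0.092. Their mean per sample was -0.035, -0.17 and 0.012 in the control samples and 0.092, -0.047 and 0.15 in the BPA samples, highest in BPA 3 and lowest in control 2, unlike the members. Of 76 tested genes of 83 for the respiratory chain and ATP synthase, which are built by the mitochondrial ribosome's products together with nuclear subunits, 55 had a higher mean, 14 without overlap and 1 lower, with a median of 0.10. Their mean per sample was -0.044, -0.079 and -0.039 in the control samples and 0.11, -0.023 and 0.074 in the BPA samples, highest in BPA 1 as in the members. The members' median was thus the highest of these sets, but the share of genes higher was not. It was 82.2% for cytosolic ribosomal proteins, 80.3% for the members, 72.4% for the respiratory chain and 57.7% for all tested genes. The shares higher without overlap were 22.2%, 27.6%, 18.4% and 8.48% in that order. Lower without overlap were 1.32% of the respiratory chain genes, against 3.53% of all tested genes. The difference between group means was 0.128 for cytosolic ribosomal proteins and 0.137 for the members. Among the cell marker lists, medians were 0.25 for acinar, 0.23 for stellate and 0.16 for macrophage and lymphocyte genes, above the members' 0.14. They were 0.099 for duct, 0.079 for endothelial and -0.013 for endocrine genes. No test of a difference between the sets was made.

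**Figure D5:**
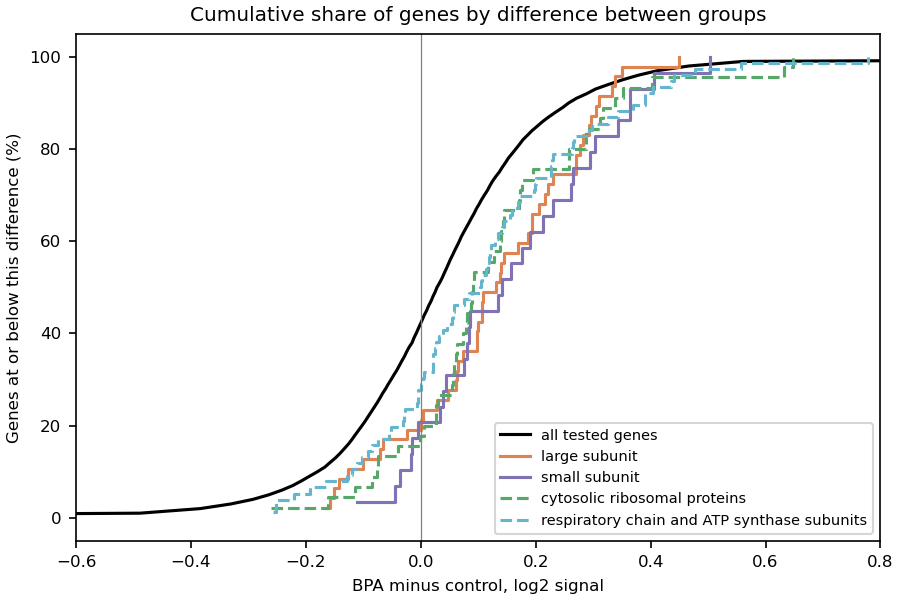
Cumulative percentage of genes by BPA minus control in log2 signal, for large and small subunit members, cytosolic ribosomal proteins, the respiratory chain and all 11787 tested genes. The member curves lie to the right of that of all tested genes over most of their range, with medians of 0.13 and 0.14 against 0.028, beside cytosolic ribosomal proteins at 0.092 and the respiratory chain at 0.10.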

How the data were processed

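RNA of 3 control and 3 BPA islet samples was labelled from 1 µg and measured on Affymetrix arrays, per the labels' protocols. The authors deposited 1 log2 value per probe set and array. The submitters' processing notes name MAS5, with no version; the summary method and scaling are not given in the sources used here, and no detection calls were used. Array medians lay at 6.55 to 6.65, so the values were used as deposited. Groups come from the sample titles and gene names from the platform annotation; all 76 symbols are in the RefSeq gene table. Probe sets with a mean above the median of all (6.60) were tested by limma 3.58.1 in R 4.3.3. The test was two-sided, with a variance trend in eBayes and Benjamini-Hochberg adjustment over 22518 probe sets at a threshold of 0.05. The fit was run on simulated data with independent noise and shifts larger than any member's difference. That check does not cover differences of the members' size. The brightest tested probe set stands for a gene. Named are members past the threshold or, as none passed, up to 10 per direction without overlap by p; Mrpl12, Mrps12, Mrps18a, Mrps18b, Mrps18c, Mrps30, Mrps36, Mrpl45 and Mrpl58; members whose tested probe sets differ in sign with 1 past 0.3; and the 2 genes of smallest p in each of 5 mitochondrial lists. The members and lists were chosen with earlier results of these data known. Alternatives covered scaling, filters, the variance model, the replicate block, single samples and the 3′ to 5′ balance.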

Additional observations from a re-analysis of the deposited data

How the results depend on the processing

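The number of arrays limits precision: with 3 samples per group the smallest two-sided exact permutation p is 0.1, and limma's SE had a median of 0.13 per member. The count of members past the threshold was 0 under all 17 alternatives run, one of them an adjusted p under 0.1. Without BPA replicate 1 the small subunit median was 0.049 and without BPA replicate 2 it was 0.18, the range over single samples left out. With only probe sets above the 75th percentile tested, 13 of 59 members were higher without overlap, against 7.15% of all 7172 genes then tested. Adjusting for the balance of 3′ and 5′ control signals gave medians of -0.12 for the large and -0.040 for the small subunit. Under it 31 members were higher, where 47.7% of all tested genes were. The cause was not tested.

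The replicate numbers are shared between groups, but the deviations of equally numbered samples from their group means correlated at 0.48, 0.078 and 0.71 over all tested probe sets and at 0.35, 0.24 and 0.50 over the member genes. The rule was set on all of them and not met by every pair, so no pairing was assumed. With the replicate block, limma called 0 members (smallest adjusted p = 0.211), with 61 higher as without it and 15 in place of 13 higher at an unadjusted p under 0.05 (6.19% and 3.98% of all tested genes). Of 500 values of 32 named genes under the alternatives, 19 reversed, in 10 genes, and 0 passed the threshold; the causes were not tested. Median centring turned Mrps9 to 0.0056. Leaving out both replicate 3 arrays turned Mrps36 to -0.091. The balance covariate gave -0.044 for Mrps12, -0.26 for Mrps18a, -0.0033 for Mrps36, -0.39 for Mrpl45, -0.27 for Mrpl15, 0.0028 for Mrps24 and -0.027 for Wars2. The mean over a gene's probe sets gave -0.16 for Mrpl35, 0.23 for Mrpl50 and 0.11 for Mrps24. Over single samples left out, Mrps9 ranged from -0.077 to 0.076, Mrps36 from -0.071 to 0.10, Mrpl15 from -0.016 to 0.20, Mrps24 from -0.28 to 0.012 and Mrps18a from -0.057 to 0.096.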
